A study of Mus musculus with 14 samples.

Results

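Hearts of 6 KIKO-700 mice, 3 female and 3 male, were set beside the hearts of the 8 mice of a second experiment, 4 labelled WT and 4 labelled with the name of another line, for which YG8 stands here. These 6 libraries were taken by their name, as were the 8, and together they make up all 14 libraries. Each library is the heart of 1 mouse, flash-frozen and read from the 3′ ends of its transcripts with the Lexogen QuantSeq FWD kit. The labels give every mouse as C57BL/6 and as post natal day 180. An older age is given elsewhere in the study. In KIKO-700 mice 1 allele of the targeted gene carries a knocked-in expanded repeat and the other allele is ablated, so the whole animal is affected. YG8 mice lack both mouse copies of the same gene and carry a human transgene with an expanded repeat. Mice labelled WT are littermates of the YG8 line. Whether the labels WT and YG8 stand for the genotypes is not settled, so both were pooled as the YG8 experiment. WT littermates of the KIKO-700 mice were not analysed here. Genotype, colony and cohort therefore move together and cannot be told apart in any value below, and whether the cohorts were collected or sequenced together is not given in the labels. Each difference is of KIKO-700 relative to the YG8 experiment and cannot be read as an effect of the targeted gene.

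A heart taken whole holds cardiomyocytes of the atria and ventricles, vessels, fibroblasts, immune cells, blood left in the chambers and the mesothelial layer of the epicardium on its surface, and all contribute RNA in proportion to what was dissected. Its cells also run a circadian clock, in which the activators encoded by *Arntl* and *Clock* switch on the *Per* and *Cry* genes, whose products then shut the activators down. Levels of clock genes in mouse heart therefore depend on the hour at which it was collected, which is not given in the sources used here.

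The KIKO-700 libraries held 7291596 to 10873728 counts and the libraries of the YG8 experiment 5226233 to 11650840. Genes of mitochondrial DNA took 34.4% ± 2.33 (SD, n = 6) of the counts in KIKO-700 and 37.8% ± 5.05 (SD, n = 8) in the YG8 experiment. The difference did not pass (exact permutation test, two-sided, p = 0.157, 0.284 adjusted over 4 measures of a library). Without YG8 2 it was −4.68 percentage points (exact permutation p = 0.0274, not adjusted). With any other single library left out, the exact permutation p was 0.124 to 0.278. Predicted genes with Gm names that are no pseudogenes took 0.738% ± 0.0462 (SD, n = 6) against 2.44% ± 1.01 (SD, n = 8), without overlap (exact permutation test, two-sided, p = 0.00233, adjusted p = 0.00932). Of these, *Gm42418* alone took 0.0396% to 0.134% in KIKO-700 and 0.694% to 3.00% in the YG8 experiment. It made up 3.00 of the 3.63% in WT 1 and 0.117 of the 0.799% in KIKO-700 female 1. The class without that gene was not tested. *Xist*, the RNA of the inactive X chromosome, was above 200 counts in the 3 KIKO-700 females and in 5 of the 8 libraries of the YG8 experiment. The labels give those libraries no sex, and the study describes them as males. The sexes of the cohorts being unequal, only the 11600 tested genes on autosomes are described. WT 2 stood apart in its cohort by 365 counts of *Jchain*, 221 of *Pck1* and 38 of *Ms4a1*, genes of plasma cells, of gluconeogenic tissue and of B cells.

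Of these 11600 genes, 4353 (37.5%) passed an adjusted p under 0.05 in edgeR's quasi-likelihood test, 2067 (17.8%) higher and 2286 (19.7%) lower in KIKO-700. In 1317 (11.4%) the called difference also left no overlap, with every KIKO-700 library beyond every library of the YG8 experiment. Of those, 811 (6.99% of all tested) were higher and 506 (4.36%) lower. Their median absolute log2 fold change was 1.06. Over all genes the median difference was −0.04 on the log2 scale. Below, levels are CPM, read counts scaled to library size with TMM factors, and each difference is a log2 fold change with its SE (standard error) in brackets, beside the adjusted p from edgeR. Counts of a gene list are to be read against 37.5% of genes called and 11.4% without overlap, which are the shares over all genes.

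The GC content of a transcript moved with the difference over the whole table. From the lowest to the highest quintile of protein-coding genes by GC content of their last 500 bases, the median log2 fold change was −0.49, −0.29, −0.04, 0.23 and 0.53. In the lowest quintile 19 genes were higher and 204 lower without overlap, and in the highest 409 were higher and 8 lower. Genes higher in KIKO-700 without overlap had a median GC content of 51.7%, those lower 37.6% and all tested protein-coding genes 44.0%. After a smooth curve of level against GC content was subtracted within each library, an alternative added after seeing the data, 1477 genes were higher, 1644 lower and 874 did not overlap. Its value is given below as GC-adjusted wherever it ends the call.

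**Figure D1:**
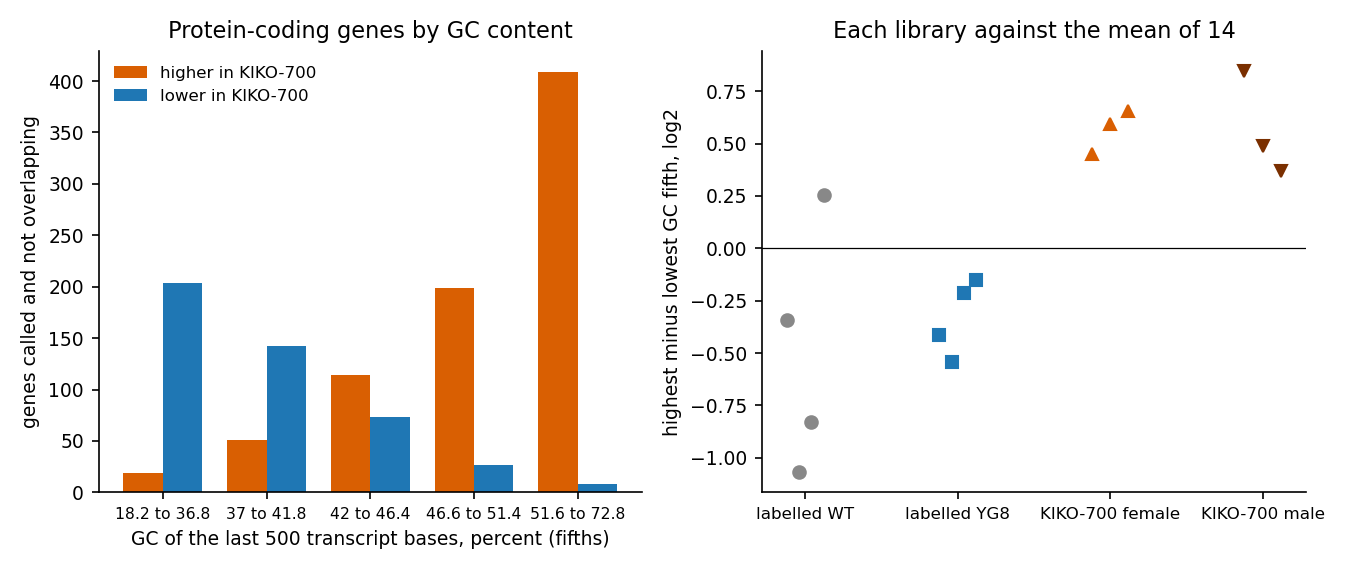
Left, numbers of protein-coding genes called and not overlapping by quintile of GC content of the last 500 transcript bases, higher or lower in KIKO-700. Right, median over genes of the highest quintile minus that of the lowest in each library, in log2 level relative to the mean of 14. Higher genes run from 19 in the lowest quintile to 409 in the highest, and the KIKO-700 libraries lie at 0.37 to 0.85, above the −1.07 to 0.25 of the YG8 experiment.

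Genes of the circadian clock differed in most members, with the activators lower and their targets higher in KIKO-700. Of 20 listed genes 19 were tested, of which 13 were higher and 3 lower, and 10 and 2 of these did not overlap. On the log2 scale the median difference over the list was 1.09. With GC-adjusted levels 12 were higher and 3 lower, in KIKO-700 females alone 10 and 2, and in KIKO-700 males alone 11 and 2. The part of the hour of collection, for which no value is at hand, was not tested.

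Known sites of the clock were looked up in the promoters of these genes. The 250 bases before the transcript start are from RefSeq on GRCm38.p6, held for 17 of the 20 genes in 22 promoters, with *Per2* and *Bhlhe40* among those without an entry. Capitals mark the E-box CACGTG, bound by the CLOCK and BMAL1 pair, or the D-box TTATGTAA, bound by DBP, TEF and HLF. Both were searched on both strands, as were the letters TAGGTCA from the sites bound by REV-ERB and ROR proteins. *Ciart*, *Tef*, *Per1* and *Cry1* are shown because they hold E-boxes and were higher, *Per3* because it holds D-boxes and was higher, and *Arntl* because it was lower. The genes shown were thus picked by their values, and *Bhlhe41*, which also holds an E-box and was higher, is not shown.
*Ciart*, chr3:95882229-95882478, minus strand: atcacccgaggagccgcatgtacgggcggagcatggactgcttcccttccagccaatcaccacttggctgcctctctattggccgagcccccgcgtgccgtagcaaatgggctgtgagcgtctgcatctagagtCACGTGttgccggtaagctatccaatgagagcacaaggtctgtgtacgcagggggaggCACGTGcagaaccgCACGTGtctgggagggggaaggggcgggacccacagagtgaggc
*Tef*, chr15:81802423-81802672, plus strand: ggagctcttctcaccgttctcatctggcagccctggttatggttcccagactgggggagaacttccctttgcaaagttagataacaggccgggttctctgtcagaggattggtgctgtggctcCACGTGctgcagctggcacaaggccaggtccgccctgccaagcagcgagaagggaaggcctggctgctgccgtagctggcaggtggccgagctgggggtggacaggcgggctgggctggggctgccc
*Per1*, chr11:69098699-69098948, plus strand: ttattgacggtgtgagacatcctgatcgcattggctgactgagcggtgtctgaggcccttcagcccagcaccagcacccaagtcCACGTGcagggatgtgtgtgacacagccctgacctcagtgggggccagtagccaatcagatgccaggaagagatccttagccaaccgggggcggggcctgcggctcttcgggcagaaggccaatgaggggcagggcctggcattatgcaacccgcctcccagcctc
*Cry1*, chr10:85185055-85185304, minus strand: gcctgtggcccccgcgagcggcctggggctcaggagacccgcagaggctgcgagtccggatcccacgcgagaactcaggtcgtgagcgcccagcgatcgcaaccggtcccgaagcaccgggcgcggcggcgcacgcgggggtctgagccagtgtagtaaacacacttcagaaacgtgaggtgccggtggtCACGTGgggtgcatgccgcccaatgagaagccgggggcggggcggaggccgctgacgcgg
*Per3*, chr4:151044666-151044915, minus strand: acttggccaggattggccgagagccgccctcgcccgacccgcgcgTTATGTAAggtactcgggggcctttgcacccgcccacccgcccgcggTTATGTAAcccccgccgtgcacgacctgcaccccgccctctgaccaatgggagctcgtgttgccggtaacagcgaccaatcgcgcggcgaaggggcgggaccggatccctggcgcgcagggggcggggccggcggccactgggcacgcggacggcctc
*Arntl*, chr7:113207215-113207464, plus strand: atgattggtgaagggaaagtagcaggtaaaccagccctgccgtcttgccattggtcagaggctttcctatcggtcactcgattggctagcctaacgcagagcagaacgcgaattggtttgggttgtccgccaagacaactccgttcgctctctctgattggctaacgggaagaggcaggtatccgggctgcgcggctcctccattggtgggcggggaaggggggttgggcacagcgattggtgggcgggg

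*Ciart* held 3 E-boxes, and *Tef* (in each of its 2 starts), *Per1*, *Cry1* and *Bhlhe41* 1 each, so 5 of the 17 genes held that motif. *Per3* was the gene with D-boxes, which numbered 2. *Nfil3* held 1 TAGGTCA. Over 32851 promoters of the same length, 6.02% held the E-box, 0.819% the D-box and 2.23% TAGGTCA. These are shares of single promoters, whereas a clock gene was counted if any of its starts held the motif, so the 2 are not alike. These are matches of letters, and binding was not measured.

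*Arntl* encodes BMAL1, the partner of CLOCK (ENSMUSG00000055116, chromosome 7 of GRCm38 from 113207465 to 113314126). The KIKO-700 libraries held 3, 0 and 0 reads of it in females and 2, 3 and 1 in males, 9 in all. Libraries labelled WT held 21, 94, 15 and 17 reads and those labelled YG8 held 87, 44, 31 and 12, 321 in all. No KIKO-700 library reached the lowest of the YG8 experiment, and the gene passed the filter only through the latter. The level was 0.18 ± 0.175 CPM (SD, n = 6) against 4.46 ± 2.64 CPM (SD, n = 8), a log2 fold change of −4.58 (SE 0.58, adjusted p = 1.94e-05).

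*Clock* (ENSMUSG00000029238, chromosome 5 from 76209868 to 76304792) was at 3.55, 3.81 and 6.27 CPM (lowest, median, highest) in KIKO-700 and at 7.95, 13.5 and 26.1 CPM in the YG8 experiment. The ranges were apart, with a log2 fold change of −1.77 (SE 0.24, adjusted p = 3.7e-05). *Npas2*, which can stand in for *Clock*, was too low to be tested, with 4 reads in 6 KIKO-700 libraries and 44 in the 8 others. *Nfil3*, the repressor that competes for D-boxes, was at 3.18 ± 0.597 CPM (SD, n = 6) against 5.83 ± 1.83 CPM (SD, n = 8), a log2 fold change of −0.88 (SE 0.23, adjusted p = 0.00599), with overlapping ranges.

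The D-box activators *Dbp*, *Tef* and *Hlf* were all higher without overlap. *Dbp* (ENSMUSG00000059824, chromosome 7 from 45705088 to 45710203) was at 29.7, 42.4 and 47.4 CPM (lowest, median, highest) in KIKO-700 and at 1.86, 3.78 and 12.9 CPM in the YG8 experiment, a log2 fold change of 3.09 (SE 0.33, adjusted p = 1.01e-05). *Tef* (ENSMUSG00000022389, chromosome 15 from 81802421 to 81826863) was at 113, 136 and 181 CPM against 16.0, 26.5 and 38.5 CPM, a log2 fold change of 2.32 (SE 0.19, adjusted p = 9.45e-08). For *Hlf* the log2 fold change was 1.48 (SE 0.23, adjusted p = 0.000102).

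Among the period and cryptochrome repressors, *Per2* (ENSMUSG00000055866, chromosome 1 from 91415982 to 91459324) differed most, at 6.44, 9.79 and 12.2 CPM (lowest, median, highest) in KIKO-700 against 0.295, 1.11 and 4.73 CPM. The highest of the latter was WT 2, the ranges did not meet, and the log2 fold change was 2.59 (SE 0.41, adjusted p = 0.000195) with WT 2 and 3.23 without it. *Per3* (ENSMUSG00000028957, chromosome 4 from 151003652 to 151044665) was at 10.5 ± 0.969 CPM (SD, n = 6) against 2.64 ± 0.812 CPM (SD, n = 8), a log2 fold change of 1.96 (SE 0.19, adjusted p = 1.05e-06). *Per1* followed with 1.15 (SE 0.24, adjusted p = 0.000972). The cryptochromes were closer, *Cry2* at 1.09 (SE 0.19, adjusted p = 0.000238) and *Cry1* at 0.76 (SE 0.20, adjusted p = 0.00589). All 5 were without overlap.

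The REV-ERB genes *Nr1d2* and *Nr1d1* encode repressors of *Arntl*. *Nr1d2* was higher without overlap, at 73.8 ± 10.8 CPM (SD, n = 6) against 27.6 ± 8.22 CPM (SD, n = 8), a log2 fold change of 1.42 (SE 0.18, adjusted p = 1.77e-05). *Nr1d1* overlapped between cohorts, and its 0.92 (SE 0.21, adjusted p = 0.00213) became 0.31 (adjusted p = 0.416) when GC-adjusted. *Ciart*, a repressor of the CLOCK and BMAL1 pair, had a log2 fold change of 1.87 (SE 0.35, adjusted p = 0.000479) and *Usp2*, a deubiquitinase that cycles with the clock, 1.13 (SE 0.18, adjusted p = 0.00011). *Bhlhe41*, also a repressor, stood at 0.62 (SE 0.22, adjusted p = 0.0311). Its call was lost when GC-adjusted (adjusted p = 0.0607) and without YG8 2, YG8 3, KIKO-700 female 3, male 2 or male 3 (adjusted p from 0.0521 to 0.0973). Of the tested members with no call, *Bhlhe40* was at −0.24 (adjusted p = 0.451) and *Rora* at 0.06 (adjusted p = 0.832), the latter with a call when GC-adjusted (0.55, adjusted p = 0.0102).

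**Figure D2:**
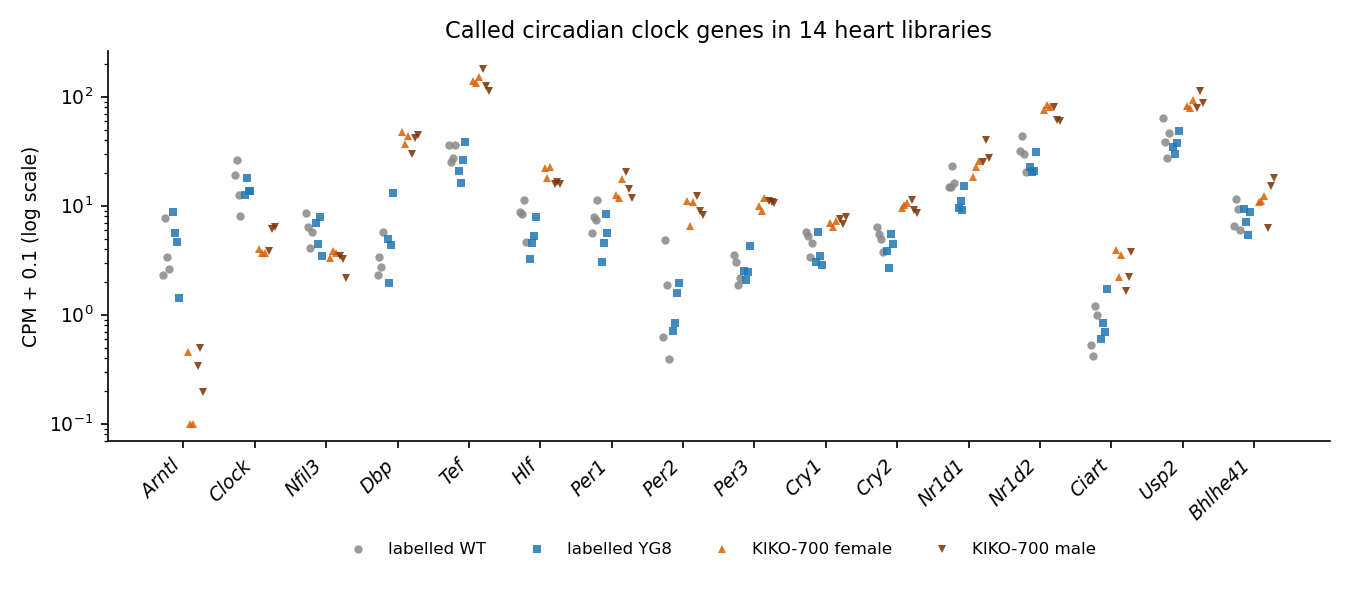
Levels of the 16 called circadian clock genes as CPM + 0.1 on a log axis, with 1 point per library and symbols for libraries labelled WT, labelled YG8, KIKO-700 female and KIKO-700 male. *Arntl* and *Clock* lie lower in the KIKO-700 libraries, and *Dbp*, *Tef* and the *Per* genes lie higher, each without overlap.

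Haemoglobin transcripts, the mark of red blood cells, were higher in KIKO-700 in every globin gene tested. The 6 tested genes of the erythroid list had 5 members higher, 4 of them without overlap, and none lower, with a median difference of 2.05. Globin reads took 1.40% to 1.91% of the counts of a KIKO-700 library and 0.148% to 0.677% in the YG8 experiment. In bulk RNA, more cells of a type and more RNA per cell cannot be told apart, here and for each cell type below.

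*Hbb-bs*, an adult β-globin (ENSMUSG00000052305, chromosome 7 from 103826534 to 103828096), was at 3529, 4987 and 6879 CPM (lowest, median, highest) in KIKO-700 and at 447, 1019 and 1648 CPM in the YG8 experiment. The lowest KIKO-700 library was above the highest of the others, and the log2 fold change was 2.32 (SE 0.25, adjusted p = 3.54e-06). *Hba-a2*, an α-globin, was at 7395 ± 1172 CPM (SD, n = 6) against 1548 ± 857 CPM (SD, n = 8), a log2 fold change of 2.26 (SE 0.31, adjusted p = 6.1e-05). *Hba-a1* (2.18) and *Hbb-bt* (1.92) did the same, and reads may be split between *Hba-a1* and *Hba-a2*, and between *Hbb-bs* and *Hbb-bt*, which are near copies. *Bpgm*, which makes 2,3-bisphosphoglycerate in red cells, overlapped at 0.94 (SE 0.24, adjusted p = 0.00466). The X-linked *Alas2*, the erythroid enzyme of haem synthesis, is outside the autosomal test and held 266 to 531 reads in a KIKO-700 library against 36 to 156 in the others, which do not overlap.

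Transcripts of the mesothelium, the outer cell layer of the epicardium, were lower in KIKO-700. Of 8 tested markers 7 were lower, 5 without overlap, and none was higher, with a median difference of −2.81. Members with few reads in KIKO-700, such as *Muc16* and *Upk1b*, passed the filter only through the libraries of the YG8 experiment. Such members could be called lower but not higher, so the count and median are in part set by the filter. Summed over the tested list the level was 9.83 to 15.6 CPM in KIKO-700 and 22.9 to 65.6 CPM in the YG8 experiment. Without WT 2 and WT 3, 4 of 6 tested were lower, with a median of −1.83.

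*Upk3b*, a uroplakin of mesothelial cells (ENSMUSG00000042985, chromosome 5 from 136038496 to 136046487), was at 0.358, 1.47 and 1.78 CPM (lowest, median, highest) in KIKO-700 and at 5.02, 16.6 and 20.7 CPM in the YG8 experiment, a log2 fold change of −3.39 (SE 0.37, adjusted p = 7.16e-06). *Upk1b* (−3.01), *Lrrn4* (−2.98), *Msln*, which encodes mesothelin (−2.87), and *Muc16*, a cell-surface mucin (−2.74), were also lower without overlap, with adjusted p from 5.82e-05 to 0.000432. *Aldh1a2*, the enzyme of the epicardium that makes retinoic acid, was lower with overlap at −1.01 (SE 0.25, adjusted p = 0.00378). *Wt1*, the epicardial transcription factor, was at 1.60 ± 0.367 CPM (SD, n = 6) against 2.01 ± 0.525 CPM (SD, n = 8) and had no call (log2 fold change −0.35, adjusted p = 0.298). *Gpm6a* was called at −0.74 (SE 0.26, adjusted p = 0.0292), and lost the call when GC-adjusted (−0.21, adjusted p = 0.568). It also lost it without WT 3 (−0.60), KIKO-700 female 1 (−0.69), female 3 (−0.71) or male 2 (−0.62). The keratin *Krt19* was too low to be tested and was counted 8 times in 6 KIKO-700 libraries and 123 times in the 8 others, *Krt8* 8 and 63 times, and *Bnc1* 0 and 29 times.

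Markers of atrial cardiomyocytes were higher in KIKO-700 in part. Of 11 tested 5 were higher, 4 without overlap, and none lower, with a median difference of 0.98. The summed level was 1860 to 2630 CPM in KIKO-700 and 242 to 1720 CPM in the YG8 experiment. With KIKO-700 females alone 3 of 11 were called, and with KIKO-700 males alone 1 of 11.

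*Nppa*, the natriuretic peptide of atrial muscle (ENSMUSG00000041616, chromosome 4 from 148000722 to 148002079), was at 951, 1044 and 1460 CPM (lowest, median, highest) in KIKO-700 and at 57.3, 344 and 787 CPM in the YG8 experiment. Its ranges did not overlap, with a log2 fold change of 1.56 (SE 0.48, adjusted p = 0.0213) and of 1.06 when GC-adjusted (adjusted p = 0.14). *Bmp10*, an atrial growth factor, was at 55.5 ± 7.20 CPM (SD, n = 6) against 6.94 ± 12.98 CPM (SD, n = 8), the latter with a lowest of 0 and a highest of 36.1 CPM in YG8 3. Its log2 fold change was 3.03 (SE 1.07, adjusted p = 0.0415), 4.38 without YG8 3 (adjusted p = 0.00576), and the call was lost without any 1 of 12 libraries (adjusted p up to 0.0705). *Sbk2*, an atrial kinase, was at 18.3 ± 4.76 CPM (SD, n = 6) against 4.91 ± 1.77 CPM (SD, n = 8), a log2 fold change of 1.91 (SE 0.24, adjusted p = 1.56e-05), without overlap. *Dkk3* was higher at 1.38 (SE 0.32, adjusted p = 0.00384) and *Tbx5*, a transcription factor that is also found in ventricle, at 0.98 (SE 0.23, adjusted p = 0.0024). The atrial light chain *Myl7* was at 1.37 (SE 0.55, adjusted p = 0.0647) and passed without WT 1 at 1.74 (adjusted p = 0.0187). *Myl4* at 0.85 (adjusted p = 0.18) and *Sln*, the atrial regulator of the calcium pump, at 0.88 (adjusted p = 0.274) had no call. Of 6 tested markers of ventricular cardiomyocytes, 1 was higher and 2 were lower.

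**Figure D3:**
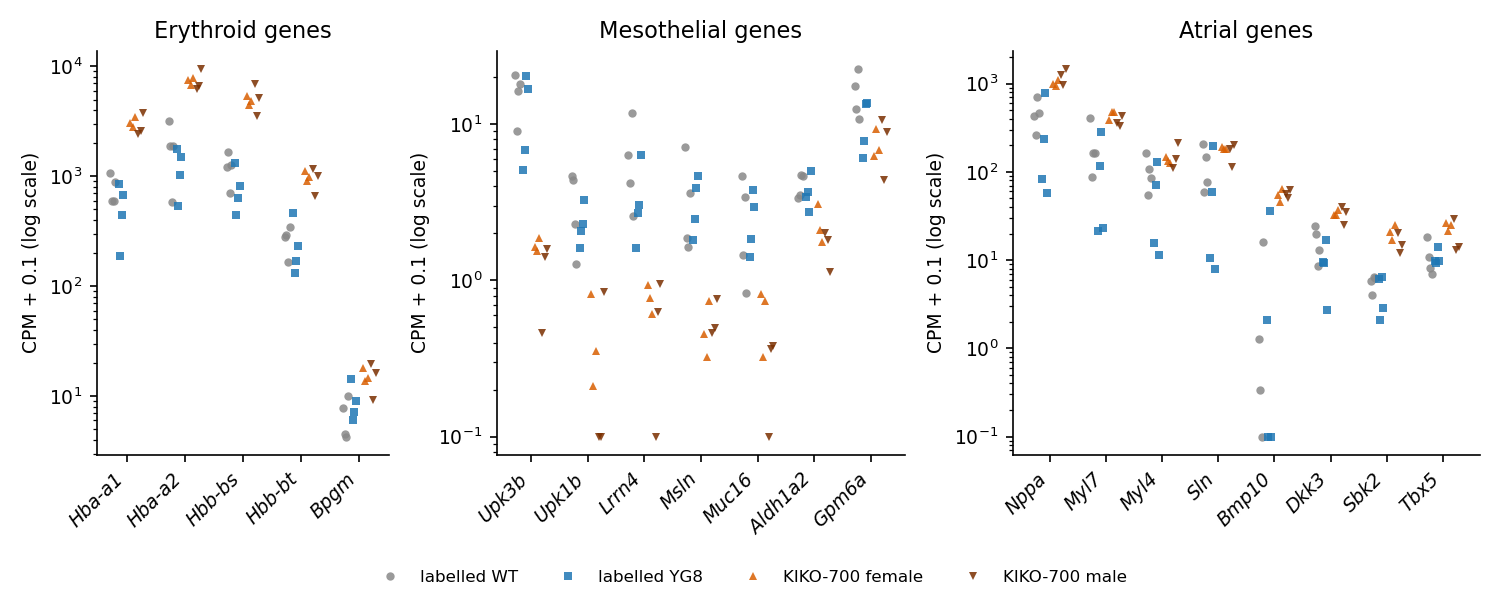
Levels of genes of red blood cells, mesothelium and atrial cardiomyocytes as CPM + 0.1 on log axes, with 1 point per library and symbols for libraries labelled WT, labelled YG8, KIKO-700 female and KIKO-700 male. Globin genes lie higher and genes such as *Upk3b* lower in KIKO-700, and *Bmp10* reaches from 0 to 36.1 CPM in the YG8 experiment.

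Fibroblast markers were lower in 7 of 11, and 5 of 7 smooth muscle and 5 of 10 endothelial markers were higher. Among the fibroblast markers, 4 of those lower did not overlap and none was higher (median log2 fold change −0.69), and 4 were lower when GC-adjusted. *Pdgfra*, the growth factor receptor of cardiac fibroblasts, was at 4.24 ± 0.729 CPM (SD, n = 6) against 9.74 ± 3.72 CPM (SD, n = 8), a log2 fold change of −1.18 (SE 0.23, adjusted p = 0.000591). *Col3a1*, a fibrillar collagen (−1.13), and *Dcn*, which encodes decorin (−0.92), were lower too, each without overlap. The matrix gene *Fbn1*, for fibrillin, had −1.09 (SE 0.22, adjusted p = 0.000933). Over the 25 tested genes of the extracellular matrix list, in contrast, 7 were higher and 5 lower, 48% in all against 37.5% over all genes. *Timp3*, an inhibitor of matrix proteases, was higher without overlap at 1.02 (SE 0.15, adjusted p = 7.71e-05).

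In smooth muscle 5 of 7 tested genes were higher and *Eln*, for elastin, was lower. *Mylk*, the kinase of the myosin light chain, was at 83.9 ± 17.8 CPM (SD, n = 6) against 30.8 ± 7.52 CPM (SD, n = 8), a log2 fold change of 1.44 (SE 0.18, adjusted p = 1.5e-05), without overlap. *Tagln* (1.21) and the smooth muscle myosin *Myh11* (1.00) were higher, the latter without overlap. Of 10 endothelial genes 5 were higher and 1 lower. *Egfl7*, secreted by endothelium, had a log2 fold change of 1.45 (SE 0.19, adjusted p = 1.86e-05) and the receptor *Tie1* one of 1.24 (SE 0.23, adjusted p = 0.000429). The lower gene was *Cd36*, the fatty acid transporter that cardiomyocytes express as well, at −0.86 (SE 0.17, adjusted p = 0.0008). All 3 were without overlap. *Vwf* was higher at 1.15 (SE 0.30, adjusted p = 0.0073).

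Of 7 pericyte genes 3 were higher and 1 lower, among them *Higd1b* at 0.90 (adjusted p = 0.00102) and *Vtn* at 0.92 (adjusted p = 0.0092), the latter without a call when GC-adjusted (0.52, adjusted p = 0.0679). Endocardium had 1 of 5 called, 20% and below the share over all genes. Lymphatic endothelium had 2 of 6 higher and 1 lower, 50% in all and above that share. *Sox10*, the transcription factor of Schwann cells, was at 2.35 ± 0.773 CPM (SD, n = 6) against 0.452 ± 0.389 CPM (SD, n = 8), a log2 fold change of 2.37 (SE 0.49, adjusted p = 0.000991), without overlap, and 2 of 4 genes of that list were higher.

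Immune markers went both ways. Of 11 macrophage genes 4 were higher and 2 lower, and 1 and 3 when GC-adjusted. *Mrc1*, the mannose receptor of resident macrophages, was at 7.66 ± 2.20 CPM (SD, n = 6) against 19.2 ± 5.98 CPM (SD, n = 8), a log2 fold change of −1.32 (SE 0.23, adjusted p = 0.000246), and *F13a1*, for a clotting factor subunit they make, had −1.004 (SE 0.17, adjusted p = 0.00021). *Csf1r*, their growth factor receptor, was instead higher without overlap at 1.03 (SE 0.19, adjusted p = 0.000503), but at 0.25 when GC-adjusted (adjusted p = 0.543). Of 3 neutrophil genes 2 were lower, *Mmp9* at −1.36 without overlap, and both tested T cell genes were called higher, but neither when GC-adjusted, against libraries labelled WT alone or with either sex of KIKO-700 alone. *Ccl5*, a chemokine of T and NK cells, was higher at 2.05 (SE 0.49, adjusted p = 0.00427) and *Cma1*, the mast cell chymase, lower at −1.93 (SE 0.34, adjusted p = 0.000298), both without overlap.

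Some KIKO-700 libraries held transcripts of organs other than the heart, in numbers of reads too low for the test. Several of these genes were nearly absent from the YG8 experiment. *Alb*, for the albumin of liver, was counted 46, 48 and 90 times in the 3 KIKO-700 females and 1, 4 and 9 times in the 3 males, against 4 reads over the 8 other libraries. *Fgb*, a fibrinogen chain of liver, was counted 13, 13 and 15 times in the females and 1, 0 and 1 times in the males, and not at all in the 8 others. Each female library thus held more reads of *Alb* and *Fgb* than any male library. *Serpina1a*, also on the liver list, was counted 3, 9 and 6 times in females, 0 times in each male and 2 times over the 8 others. *Apoa1* of that list did not part the sexes, with 9, 5 and 6 reads in females, 6, 2 and 2 in males and 6 over the 8 others. *Scgb1a1*, the secretoglobin of airway club cells, was counted 13, 18 and 3 times in KIKO-700 females, 1, 10 and 43 times in males and 0 times in all 8 others. Against a floor of 3 reads over those 8 libraries, this makes the level in KIKO-700 at least 41.2-fold higher, and at least 27-fold without KIKO-700 male 3, which held 43 of the 88 reads. *Sftpb* and *Sftpa1*, surfactant genes that define alveolar type 2 cells, were at 0 in all 14 libraries, while KIKO-700 held 4 reads of *Sftpc* and 6 of *Sftpd* against 0 of each, and 11 of *Ager* against 6. *Dntt*, the terminal transferase of developing lymphocytes, was counted 16 times in KIKO-700 and 1 time in the YG8 experiment, *Rag1* 6 and 0 times, *Rag2* 1 and 0 times and the T cell gene *Cd8b1* 20 and 9 times, with the thymic *Ptcra* at 0 in both. Counting error is all that the floor covers.

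*Ttr*, for transthyretin of liver and choroid plexus, was called at 5.01 (SE 1.36, adjusted p = 0.0127), but 3066 of its 3349 reads in KIKO-700 came from male 2. Without KIKO-700 male 2 the log2 fold change was 1.57 (adjusted p = 0.0977). With KIKO-700 females alone it was 2.21 (adjusted p = 0.0211). The females held 23, 120 and 117 reads, males 1 and 3 held 13 and 10, and the YG8 experiment 4 to 40. With limma-voom the gene had no call with all libraries (adjusted p = 0.256). *Alb* was counted 4 times in male 2, in which *Ttr* thus did not move with the liver genes. *Mylpf*, a fast light chain of skeletal muscle, was lower in KIKO-700, at 0.382 ± 0.432 CPM (SD, n = 6) against 2.41 ± 0.944 CPM (SD, n = 8). Its log2 fold change was −2.53 (SE 0.50, adjusted p = 0.000797), and −3.14 without KIKO-700 male 3. Of 5 tested genes of that list it was the 1 called, and it passed the filter through the YG8 experiment.

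**Figure D4:**
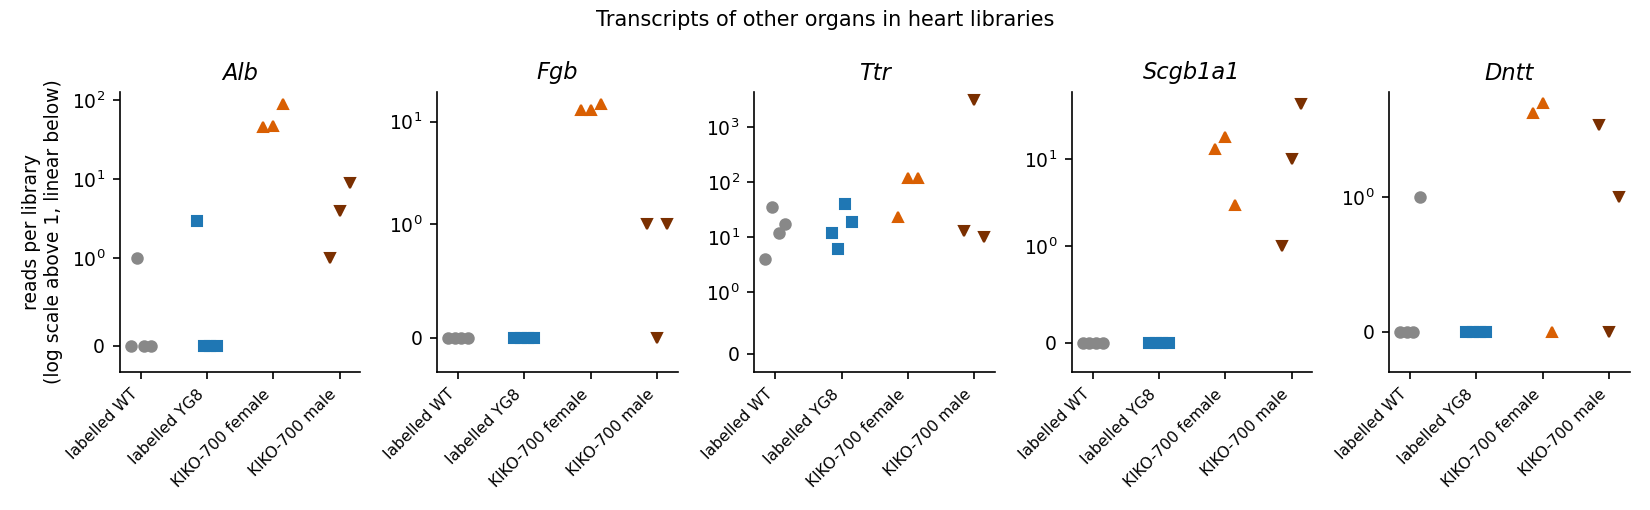
Reads per library of *Alb*, *Fgb*, *Ttr*, *Scgb1a1* and *Dntt* in each group, on an axis that is logarithmic above 1 and linear below it. *Alb* and *Fgb* reads are highest in the KIKO-700 females, *Ttr* reaches 3066 reads in KIKO-700 male 2, and *Scgb1a1* is at 0 in all 8 libraries of the YG8 experiment.

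Genes of the contractile apparatus and of excitation differed in single members. Of 20 sarcomere genes 7 were higher and 5 lower (median 0.23), and 2 and 4 when GC-adjusted (median −0.01). *Tcap*, the titin cap protein (ENSMUSG00000007877, chromosome 11 from 98383811 to 98384953), was at 2208, 2229 and 2585 CPM (lowest, median, highest) in KIKO-700 and at 158, 424 and 930 CPM in the YG8 experiment. Its ranges were far apart, with a log2 fold change of 2.35 (SE 0.32, adjusted p = 6.34e-05). *Tnnc1*, for cardiac troponin C, was lower without overlap at −0.93 (SE 0.17, adjusted p = 0.000332), as was *Nebl*, for nebulette, at −1.17 with overlap. *Myl3*, the ventricular essential light chain, was at 9908 ± 1660 CPM (SD, n = 6) against 5704 ± 1434 CPM (SD, n = 8), a log2 fold change of 0.80 (SE 0.19, adjusted p = 0.00302) and of 0.28 when GC-adjusted (adjusted p = 0.304). *Fhl2*, a LIM protein of the sarcomere and nucleus, was lower at −0.82 (SE 0.16, adjusted p = 0.000753).

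Of 13 ion channel genes 5 were higher and none lower, and 3 were higher and 1 lower when GC-adjusted. *Kcnj11*, a subunit of the ATP-sensitive potassium channel (ENSMUSG00000096146, chromosome 7 from 46093953 to 46100764), was at 53.5, 69.4 and 92.2 CPM (lowest, median, highest) in KIKO-700 and at 15.9, 35.4 and 42.6 CPM in the YG8 experiment. The cohorts did not overlap, and the log2 fold change was 1.11 (SE 0.20, adjusted p = 0.0003). *Kcnk3*, a background potassium channel, had 0.98 (adjusted p = 0.000414) and 0.20 when GC-adjusted (adjusted p = 0.53). *Cntn2*, a marker of the conduction system, had 1.16 (adjusted p = 0.0141) and 0.82 (adjusted p = 0.0905).

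Calcium handling had 2 of 13 genes higher and 5 lower, and 1 and 2 when GC-adjusted. *Pln*, the brake of the calcium pump, was at 1902 ± 77.3 CPM (SD, n = 6) against 3076 ± 622 CPM (SD, n = 8), a log2 fold change of −0.69 (SE 0.17, adjusted p = 0.00307) that had no call when GC-adjusted (−0.32, adjusted p = 0.154). The same held for the junctional protein *Jph2* (1.21, GC-adjusted 0.58 with adjusted p = 0.0751) and the kinase *Camk2d* (−0.71, GC-adjusted −0.36 with adjusted p = 0.0794).

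Fatty acid β-oxidation had 4 of 18 tested genes higher and 7 lower (median log2 fold change −0.34), and 1 and 8 when GC-adjusted. *Etfa*, which passes electrons from acyl-CoA dehydrogenases to the respiratory chain (ENSMUSG00000032314, chromosome 9 from 55454508 to 55512243), was at 20.8, 32.9 and 47.4 CPM (lowest, median, highest) in KIKO-700 and at 61.2, 128 and 205 CPM in the YG8 experiment. The cohorts did not overlap, and the log2 fold change was −1.97 (SE 0.28, adjusted p = 7.74e-05). *Acadm*, the medium-chain dehydrogenase (−1.23), and *Hadhb*, of the trifunctional protein (−1.18), were also lower without overlap, and *Slc25a20*, the carnitine carrier, was lower at −0.69 (SE 0.19, adjusted p = 0.00705). The citric acid cycle had 2 of 17 higher and 6 lower (median −0.24), and 1 and 3 when GC-adjusted, with *Idh3a*, of isocitrate dehydrogenase, at 83.6 ± 12.7 CPM (SD, n = 6) against 215 ± 50.8 CPM (SD, n = 8). Its log2 fold change was −1.36 (SE 0.17, adjusted p = 1.77e-05). *Dld*, the shared dehydrogenase of 2-oxo acid complexes, was lower without overlap at −0.94 (SE 0.16, adjusted p = 0.000204), and *Suclg2*, of succinyl-CoA ligase, was lower at −0.75.

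Glycolysis had 6 of 17 genes higher and none lower (median 0.31), and 4 and 1 when GC-adjusted (median 0.07). *Pfkl*, a phosphofructokinase (1.27), *Pgam2*, the muscle phosphoglycerate mutase (1.17), and *Hk1*, a hexokinase (1.03), were higher without overlap, with adjusted p from 7.74e-05 to 0.000429. *Pdk2*, a kinase that switches off pyruvate dehydrogenase, was at 183 ± 36.8 CPM (SD, n = 6) against 66.0 ± 25.4 CPM (SD, n = 8), a log2 fold change of 1.47 (SE 0.22, adjusted p = 7.44e-05). Its fasting-induced relative *Pdk4* was lower at −2.85 (SE 0.74, adjusted p = 0.00903), and at −1.90 without WT 2, the highest of its cohort at 33.1 CPM. *Plin2*, which coats lipid droplets, was higher at 0.48 (adjusted p = 0.0153) and had no call when GC-adjusted (0.27, adjusted p = 0.199). Of 12 genes of PPAR and fasting 1 was higher and 2 were lower.

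Nuclear genes of the respiratory chain had 5 of 76 tested higher and 18 lower, 30.3% in all and below the share over all genes, with a median of −0.09. When GC-adjusted 0 were higher and 16 lower, and with library size alone 8 and 12 (median 0.07). *Ndufb6*, of complex I, was lower without overlap at −0.90 (SE 0.18, adjusted p = 0.000977), its relative *Ndufb4* was lower with overlap at −0.93, and *Atp5f1*, of the ATP synthase, was lower at −0.96 (adjusted p = 0.000863) with −0.46 when GC-adjusted (adjusted p = 0.0888). Mitochondrial ribosomal proteins had 4 of 78 higher and 20 lower, but 5 and 10 with library size alone, 12 lower against libraries labelled WT alone and 31 against those labelled YG8 alone. Among them were *Mrps31* at −1.34 (SE 0.21, adjusted p = 9.87e-05) and *Mrpl32* at −1.04 (SE 0.18, adjusted p = 0.000255) without overlap and *Mrpl50* at −1.07 with overlap. Cytosolic ribosomal proteins had 11 of 78 higher and 9 lower, 7 and 14 when GC-adjusted, and 18 and 6 with library size alone. *Rpl35* was higher at 1.02 and *Rpl10a* (−1.20) and *Rpl27* (−1.02) lower, all without overlap, and reads of such genes may be split with their many pseudogenes. The proteasome had 5 of 36 higher and 10 lower, and 2 and 7 when GC-adjusted, with *Psmd13* (1.33) and *Psmc5* (1.10) higher and *Psmd7* (−0.72) lower without overlap.

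Genes of the mitochondrial integrated stress response, through which cells answer failing mitochondria, had 6 of 12 tested higher and none lower (median log2 fold change 0.58), and 4 when GC-adjusted. Against the libraries labelled WT alone 3 of 12 were higher, and against those labelled YG8 alone 7 of 11. *Ddit3*, for the stress factor CHOP (ENSMUSG00000025408, chromosome 10 from 127290774 to 127296288), was at 23.3, 25 and 29.9 CPM (lowest, median, highest) in KIKO-700 and at 8.02, 13.2 and 18.0 CPM in the YG8 experiment, without overlap (log2 fold change 1.00, SE 0.18, adjusted p = 0.00041). *Pck2*, the mitochondrial phosphoenolpyruvate carboxykinase, was at 6.94 ± 1.12 CPM (SD, n = 6) against 2.89 ± 0.696 CPM (SD, n = 8), a log2 fold change of 1.27 (SE 0.20, adjusted p = 0.0001), without overlap. *Shmt2*, of mitochondrial one-carbon metabolism, was higher with overlap at 1.30 (SE 0.32, adjusted p = 0.00416). *Mthfd1l*, an enzyme of that pathway outside the list, was higher without overlap at 2.18 (SE 0.31, adjusted p = 5.3e-05). Within the list 10 of the 12 tested genes were above 0. *Mthfd2*, the listed enzyme of that pathway, had no call at −0.53 (adjusted p = 0.169), nor had *Gdf15* at 0.08 (adjusted p = 0.866).

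Iron-sulphur cluster assembly, which builds cofactors of mitochondrial enzymes, had 2 of 16 tested genes higher and 7 lower (median −0.43), and 1 and 5 when GC-adjusted. *Iba57*, a late assembly factor, was at 48 ± 13 CPM (SD, n = 6) against 16.2 ± 8.31 CPM (SD, n = 8), a log2 fold change of 1.57 (SE 0.29, adjusted p = 0.000632), without overlap. Its partner *Isca2* was lower with overlap at −1.09 (SE 0.25, adjusted p = 0.00246), and *Bola3*, of the same late step, at −1.02 (SE 0.21, adjusted p = 0.00109). In iron handling 2 of 15 were higher and 4 lower. *Slc25a37*, for the iron importer mitoferrin of erythroid cells, was higher without overlap at 1.14 (SE 0.18, adjusted p = 9.87e-05), in the cohort with more globin RNA. *Hamp*, for hepcidin, was higher at 1.75 and *Ncoa4*, the ferritinophagy receptor, lower at −1.26, both with overlap. *Alas1*, the housekeeping first enzyme of haem synthesis, was at 9.85 ± 5.67 CPM (SD, n = 6) against 35.5 ± 9.54 CPM (SD, n = 8), a log2 fold change of −1.84 (SE 0.29, adjusted p = 0.000176), without overlap.

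Cardiac stress genes were lower in 5 of 12 tested and higher in 1, the *Nppa* given above. *Nppb*, the natriuretic peptide of strained ventricle, was at 0.254, 1.56 and 2.62 CPM (lowest, median, highest) in KIKO-700 and at 2.11, 8.97 and 39.5 CPM in the YG8 experiment, with the highest in WT 3. The ranges overlapped slightly, and the log2 fold change was −2.87 (SE 0.67, adjusted p = 0.0051). *Ankrd1* (−1.04) and *Xirp2* (−0.81), both induced in stretched muscle, were lower with overlap. With KIKO-700 males alone none of the 12 was lower and 1 was higher. The cell-cycle inhibitor *Cdkn1a* was lower at −1.28 (SE 0.32, adjusted p = 0.00531).

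Interferon-stimulated genes had 6 of 21 higher and none lower (median 0.36), and 5 when GC-adjusted. *Irf7*, their master regulator, was at 8.82 ± 2.48 CPM (SD, n = 6) against 3.53 ± 1.26 CPM (SD, n = 8), a log2 fold change of 1.31 (SE 0.24, adjusted p = 0.00046). *Ifit3* (1.31) and its near copy *Ifit3b* (1.36), between which reads may be split, were higher too, all 3 without overlap. *Ly6e*, also interferon-induced, was higher without overlap at 1.03 (SE 0.19, adjusted p = 0.000459).

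Among heat shock genes 2 of 12 were higher and 2 lower. *Hsp90aa1*, the inducible cytosolic HSP90, was at 80.7, 86.7 and 96.1 CPM (lowest, median, highest) in KIKO-700 and at 147, 187 and 223 CPM in the YG8 experiment, apart in every library (log2 fold change −1.05, SE 0.14, adjusted p = 2.59e-05). *Dnajb1* (1.25) and *Bag3* (0.82), both co-chaperones of HSP70, were higher without overlap. *Cirbp*, induced by mild cold and cycling with body temperature, was higher at 0.73 (SE 0.19, adjusted p = 0.00537). Immediate early genes had 2 of 14 higher and 3 lower. *Ier3* was at 76.4 ± 13.96 CPM (SD, n = 6) against 18.1 ± 4.52 CPM (SD, n = 8), a log2 fold change of 2.08 (SE 0.17, adjusted p = 1.01e-07), and *Jund* had 1.56 (SE 0.21, adjusted p = 2.84e-05), both without overlap. *Errfi1*, a feedback inhibitor of the EGF receptor, was lower without overlap at −1.88 (SE 0.30, adjusted p = 0.000141). Of 8 glucocorticoid targets 1 was higher and 3 were lower.

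The antioxidant list had 10 of 37 genes higher, 5 of them without overlap, and 5 lower, and 5 and 6 when GC-adjusted (median 0.03). The glutathione transferases *Gstt2* (1.45) and *Gstt3* (1.17), which are related in sequence, and *Sod3*, the extracellular superoxide dismutase (1.32), were higher without overlap, with adjusted p from 3.88e-05 to 9.87e-05.

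**Figure D5:**
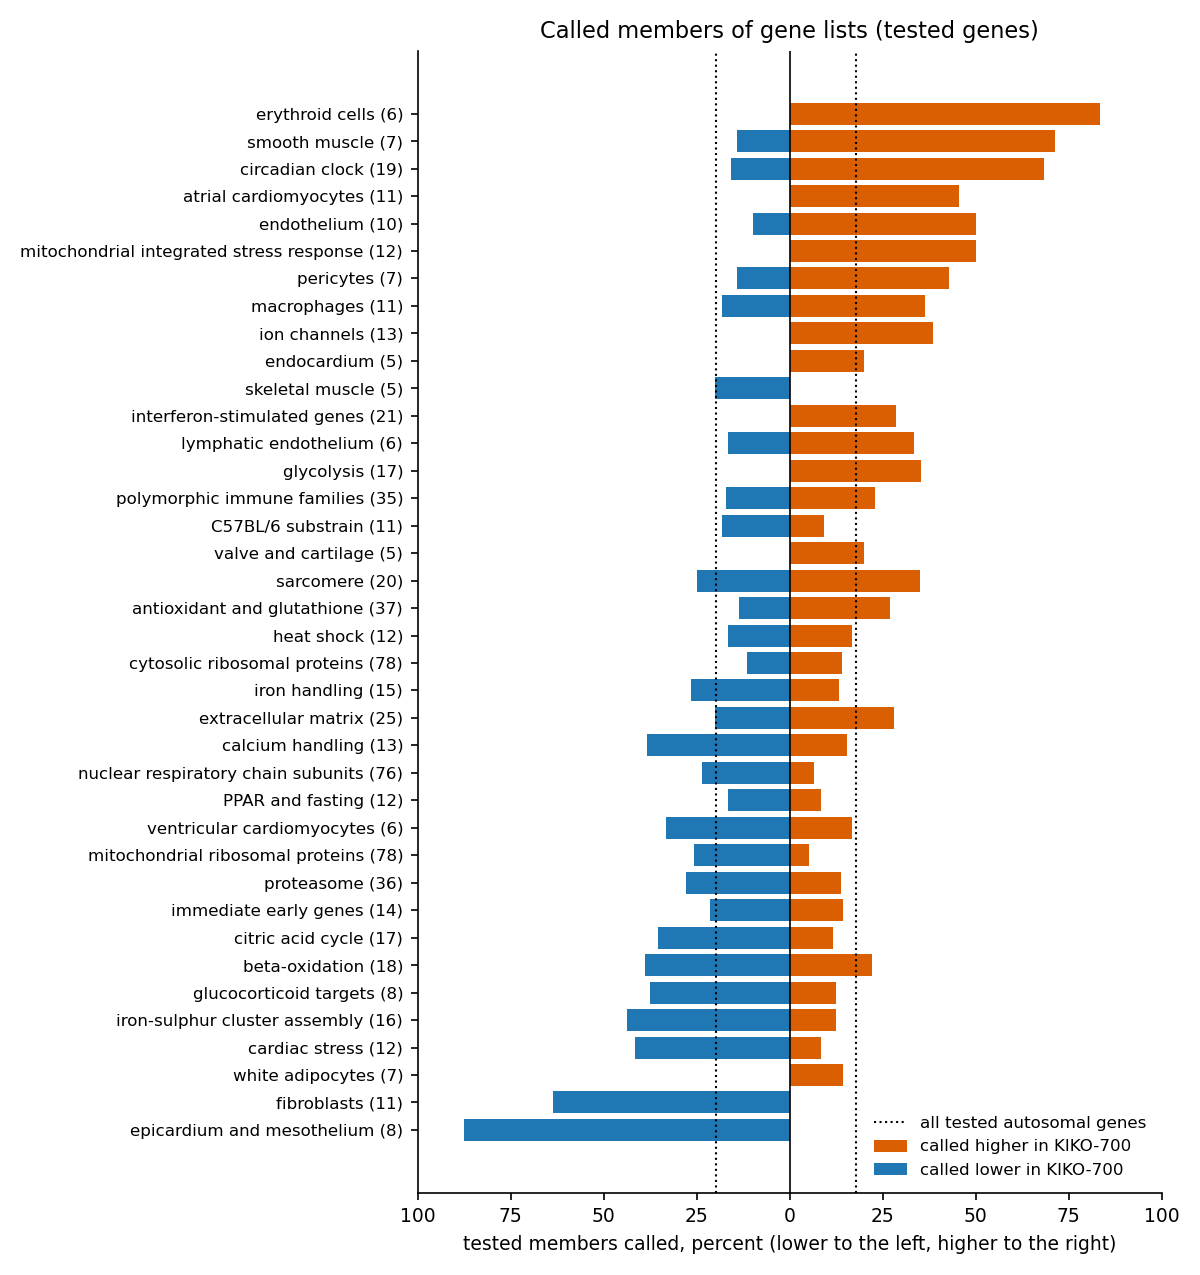
Percent of tested members called higher (to the right) and lower (to the left) in KIKO-700 for lists of at least 5 tested genes, with the number tested in brackets. Dotted lines mark the shares over all autosomal genes, 17.8% higher and 19.7% lower, which clock and erythroid genes exceed on the higher side and mesothelial and fibroblast genes on the lower side.

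Outside these lists, *Cilp2*, a secreted matrix protein, had the highest log2 fold change of the genes named here without overlap. It was at 17.5 ± 2.46 CPM (SD, n = 6) against 2.00 ± 1.03 CPM (SD, n = 8), a difference of 3.12 (SE 0.28, adjusted p = 2.35e-07). *Mamdc4* (2.17), the tetraspanin *Tspan4* (2.08) and the ephrin receptor *Ephb3* (2.05) were also higher. On the lower side *Spon2*, a secreted matrix protein of the spondin family, was at 0.389 ± 0.313 CPM (SD, n = 6) against 3.61 ± 2.46 CPM (SD, n = 8), a difference of −3.13 (SE 0.57, adjusted p = 0.000495). *Lzic* (−2.11), the kinetochore gene *Cenpq* (−1.93), *Trmt10c*, a subunit of mitochondrial RNase P (−1.91), *Lrrc39*, a sarcomere M-band gene (−1.91), *Megf9* (−1.89) and *Paip1*, which binds the poly(A)-binding protein (−1.86), were lower. All of these were without overlap.

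Strain and colony could also part the cohorts, since the labels name C57BL/6 without a substrain. Of 11 tested genes known to differ between C57BL/6 substrains 1 was higher and 2 were lower, 27.3% in all, below the share over all genes. *Nnt*, for a mitochondrial transhydrogenase that is truncated in C57BL/6J, was at 55.9, 89.3 and 125 CPM (lowest, median, highest) in KIKO-700 and at 65.3, 101 and 187 CPM in the YG8 experiment. The ranges overlapped and there was no call (log2 fold change −0.39, adjusted p = 0.266). A second Ensembl gene carries the symbol *Nnt* and overlaps it, and reads at the 3′ end do not cover a deletion within the gene. *Wdfy1* had no call at 0.96 (adjusted p = 0.0552), and passed without WT 1 (1.10), YG8 3 (1.28) or KIKO-700 female 2 (1.15), and when GC-adjusted (1.38, adjusted p = 0.013). *Ide* (−1.02, adjusted p = 0.000657) and *Fgfbp3* (−1.64, adjusted p = 0.00331), which neighbour each other on chromosome 19, were lower, *Ide* without overlap. Of 35 tested genes of polymorphic immune families 8 were higher and 6 lower, near the share over all genes. Another pair of neighbours, *Ifi207* (−1.35, without overlap) and *Ifi211* (−1.49) of the interferon-inducible cluster of chromosome 1, was lower.

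By chromosome the share of genes without overlap ran from 7.35% on chromosome 16 to 15.4% on chromosome 15, against 11.4% in all. Among 207 windows of 10 megabases with at least 20 tested genes, the highest share was on chromosome 11 from 90000001 to 100000000, where 24 of 98 genes (24.5%) did not overlap, 19 higher and 5 lower. *Hlf* lies there, as do *Pdk2*, the acyl-CoA synthetase gene *Acsf2* (2.54), *Abi3* (1.28), *Arhgap23* (1.21), *Ppp1r1b* (1.90), *Wfikkn2* (1.46), and *Tcap*, all higher without overlap. *Spop*, for an adaptor of ubiquitin ligase, was lower at −1.28 (SE 0.18, adjusted p = 4.67e-05), as was *Utp18* at −1.65. Genotypes of the strains were not measured.

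Processed pseudogenes were called less often than all genes, and those called were lower more often than higher. Of 698 tested processed pseudogenes 27 were higher and 159 lower (median −0.24), 26.6% in all against 37.5% over all genes. Without overlap 3 were higher and 42 lower, 6.45% in all against 11.4% over all genes. Over all genes 17.8% were higher and 19.7% lower. *Gm42418*, a predicted gene (ENSMUSG00000098178, chromosome 17 from 39846958 to 39848788), was at 351, 996 and 1367 CPM (lowest, median, highest) in KIKO-700 and at 7269, 18878 and 32852 CPM in the YG8 experiment. The lowest of the latter was above the highest of the former, and the log2 fold change was −4.43 (SE 0.50, adjusted p = 1.98e-05). *Gm20594* (−5.57, adjusted p = 1.69e-07) and *Gm11410* (−3.07, adjusted p = 1.5e-08) were lower without overlap, and *Gm21983* (1.52, adjusted p = 4e-05) was higher. Reads of such genes may come from similar sequences elsewhere, so their identity is uncertain. *Gm42418* took 0.0396% to 0.134% of the counts of a KIKO-700 library and 0.694% to 3.00% in the YG8 experiment.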

How the data were processed

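The authors deposited raw counts of reads per Ensembl gene, whole numbers in 1 file per library and without normalization. The study's methods name ShortRead, Rsubread, stranded featureCounts and limma, whereas the submitters' processing notes list HTSeq 0.6.1, STAR 2.5.0a and the build GRCm38.p6, and the accounts were not reconciled. Molecular identifiers are not mentioned, so intervals and floors cover counting error only. GENCODE M21 gave the symbol and GRCm38 coordinates of 54495 of the 54532 identifiers.

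Groups came from the labels, and libraries labelled WT and YG8 were pooled, because it is not settled whether those labels stand for the genotypes. Nothing in the labels pairs libraries across cohorts, and where the mice of a group share litters is not stated. Genes were filtered with filterByExpr (12034 left, 11600 on autosomes), scaled by TMM and tested between the 6 KIKO-700 and 8 other libraries by edgeR 4.0.16 in R 4.3.3, with its quasi-likelihood test and robust dispersions, with Benjamini and Hochberg's adjustment over all tested genes and a threshold of 0.05. The filter keeps a gene with enough reads in as many libraries as the smaller cohort holds. Genes such as *Arntl*, *Muc16*, *Upk1b*, *Spon2* and *Mylpf* were thus kept through the YG8 experiment, and *Sox10* through KIKO-700. The direction of such genes was set by the filter. The standard error is the absolute log2 fold change over the square root of F. Overlap was judged on log2 CPM with a prior count of 2, and log2 fold changes are those of the edgeR fit at its default prior. At an unadjusted p under 0.05, 5508 autosomal genes passed. On counts simulated for 11910 genes at the means and library sizes found here, the test found 73 of 100 genes altered by a log2 of 1, 98 of 100 altered by a log2 of 2, and 12 unaltered genes. These counts were drawn from the trended dispersion and without the GC difference that the cohorts show. The 12 are therefore not the number of false calls among the genes called here. Single measures of a library were tested by exact permutation over 3003 splits, for which the smallest p is 0.000333.

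The members and the 48 gene lists were chosen with earlier results of these data known. The rule for named genes, which gives 163 of which not all are printed, took up to 15 higher and 15 lower without overlap with a mean of 2 CPM or more, up to 3 called members of each list with the smallest p (or the most abundant where none was called), 3 pseudogenes or Gm genes per direction and genes of the window with the highest share. Further clock, erythroid, mesothelial, atrial, substrain and stress response list members were named after their values were seen, as were the genes given by reads alone. Of 155 genes given from the test, 147 were called, with *Mthfd2* and *Gdf15* left out of this count. GC content was taken over the last 500 bases of the longest transcript, and the curve was a loess fit of span 0.5 in each library. Promoters are the 250 bases before a start in RefSeq.

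Alternatives were the scaling (library size alone, upper-quartile or RLE factors), the filter (none, or 10 counts in every library), the tool (DESeq2 1.42.0 and, from limma 3.58.1, voom with and without library weights and trend), 4 separate groups, the replicate number as a block, *Xist* as a covariate, either label alone, either sex of KIKO-700 alone, autosomal genes alone, pseudogenes and Gm genes left out, and each library left out. The GC curve and the removal of WT 2 with WT 3 were chosen after seeing the data. The targeted gene and other items held back for evaluation are left out.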

Additional observations from a re-analysis of the deposited data

Results flagged for a closer look

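Of 326 sets of libraries looked at, 27 held a highest or lowest library that stood apart from the rest of its cohort by Dixon's 95% criterion, where chance gives 1 in 20, or about 16. Each is given as its value, without an explanation, and the causes were not tested.

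Among the KIKO-700 hearts, male 2 held 402 CPM of *Ttr*, for transthyretin, and 3.93 CPM of *Acsf2*, an acyl-CoA synthetase, as the highest values, and 113 CPM of *Sln*, the atrial calcium pump regulator, as the lowest. KIKO-700 male 3 was highest in total counts (10873728) and in *Myl4* (211 CPM), an atrial light chain, and lowest in the clock gene *Nfil3* (2.06 CPM). In KIKO-700 male 1 the mesothelial gene *Upk3b* was lowest (0.358 CPM) and *Shmt2*, of one-carbon metabolism, highest (24.8 CPM). KIKO-700 female 2 was lowest in *Wdfy1*, at 0.777 CPM.

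In the YG8 experiment the library labelled WT 2 was highest in the clock gene *Per2* (4.73 CPM) and the fasting gene *Pdk4* (33.1 CPM). WT 3 was highest in mesothelial *Lrrn4* (11.7 CPM), in *Nppb* (39.5 CPM), in *Mthfd1l* (2.20 CPM) and in *Rpl27* (24.5 CPM). WT 1 was highest in *Ifit3* (12.6 CPM) and *Psmd7* (132 CPM) and lowest in the stretch-induced *Ankrd1* (415 CPM). WT 4 was highest in *Tnnc1*, for troponin C (1793 CPM), and lowest in *Cenpq* (1.62 CPM). Among libraries labelled YG8, YG8 4 was highest in *Dbp* (12.9 CPM) and *Ier3* (28.4 CPM), YG8 3 in *Bmp10* (36.1 CPM) and *Ttr* (5.89 CPM), YG8 2 in *Atp5f1* (1163 CPM) and *Ncoa4* (10.4 CPM), and YG8 1 in reads of *Alb* (3).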

How the results depend on the processing

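The 155 genes given from the test, with *Mthfd2* and *Gdf15* left out, were refitted under 34 alternatives. Of 5202 values, 5069 kept their direction and side of the threshold, 108 lost the call, 20 gained it and 5 in 4 genes turned direction. Those 5 were *Nnt* (0.0146), *Wt1* (0.0235) and *Bhlhe40* (0.28) with the GC curve subtracted, and *Rora* against WT alone (−0.15) and with the replicate block (−0.0457), none of which was called. The GC curve, chosen after seeing the data, left 874 genes without overlap in place of 1317. With library size alone 2343 genes were higher and 1419 lower, and the median difference over all genes moved on the log2 scale from −0.036 to 0.087. With limma-voom 2281 were higher and 1948 lower. Against libraries labelled WT alone 1369 were higher, and against those labelled YG8 alone 3273 did not overlap. Of the named genes, *Slc25a20*, *Plin2*, *Bhlhe41*, *Cirbp*, *Cry1*, *Cntn2*, *Shmt2* and *Ttr* lost the call against WT alone, and *Gpm6a*, *Nppa*, *Bmp10* and *Ttr* against YG8 alone. KIKO-700 females alone gave 1102 higher and 1229 lower, and males alone 920 and 611, with fewer libraries, and 18 and 29 of the named genes lost the call. With 1 library left out, 1672 to 2197 genes were higher, 1800 to 2488 lower and 1354 to 1836 without overlap.

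Same-numbered libraries of the cohorts deviated together only weakly (r = 0.119, 0.142 and 0.0332 for numbers 1, 2 and 3), so the numbers give no pairing. With the replicate number as a block, 2150 genes were higher, 2368 lower and 1313 did not overlap.

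The share of counts from mitochondrial DNA differed by −3.42 percentage points, and between −4.68 and −2.43 with 1 library left out. Without YG8 2 the difference was −4.68 (exact permutation p = 0.0274, not adjusted), and with any other single library left out the exact permutation p was 0.124 to 0.278. No fit separates cohort from genotype. Genes with few reads, such as those of liver and airway, were not testable at this depth.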
